A study of Homo sapiens with 2 samples.

Results

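The cells described here were 242 day 160 cells with 2 or more DHRS3 UMIs (unique molecular identifiers, each counting 1 captured RNA molecule) that lay under limits for HLA class II genes and for markers of other cells in the culture. They were 2.43% (exact 95% interval 2.13 to 2.75%) of the 9972 day 160 cells that passed the quality limits, and 242 of the 10496 passing cells of both libraries. Members had to show under 2000 CPM (UMIs of a gene per 1000000 UMIs of the cell or set) of HLA-DRA, HLA-DPA1, HLA-DRB1 and CD74 together. They also had to show under 5 CRABP1 UMIs, under 2 CALB2 and SCGN UMIs together, under 3 COL1A1 UMIs, and no MKI67 or TOP2A UMI. The members were thus chosen by the measured counts of these genes, whose levels are given as a description and support nothing. ACVR2A, the marker named beside DHRS3, is not in the rule. It was named with earlier results of these data known, so its higher level in members is a description too.

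Astrocyte progenitors had been made from H7, an established human embryonic stem cell line, and the labels give LIF, a cytokine, and BMP4 and FGF1, both growth factors, as the agents used. A library of 10x Genomics 3' single-cell RNA was labelled day 160 and another day 220, and both shared this treatment. There was no untreated culture and no replicate library, and 3 differentiations had been mixed before loading, so no value carries a spread between cultures and no test was made. The labels do not separate the differentiations. The members carried 3288230 UMIs, with a median of 11477.5 UMIs and 3422.5 genes per cell, and the other 9730 passing day 160 cells carried 125559034 UMIs, with medians of 10415 UMIs and 3287 genes. Mitochondrially encoded genes took 11.8% of the members' UMIs and 11.7% of those of the other cells. Scrublet marked 13 members (5.37%) and 570 other cells (5.86%) as doublets, and these were kept. The 2 libraries shared 3 cell barcodes, of which none belonged to a member.

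Retinoic acid is made from retinol by way of retinaldehyde, and it patterns the neural tube and drives the differentiation of neural progenitors. DHRS3 encodes a short-chain dehydrogenase that reduces retinaldehyde back to retinol and thereby limits retinoic acid, and the gene is itself induced by retinoic acid. ACVR2A, the second gene by which these cells are marked, encodes a type II receptor for activins and some bone morphogenetic proteins, which signals through SMAD proteins. Radial glia and astrocyte progenitors share VIM, SOX2 and SLC1A3, and GFAP is widely used as an astrocyte marker.

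DHRS3 (chr1:12567910-12617731, minus strand, GRCh38) had 222 CPM in members, against 19.3 CPM in the other passing cells. Of the members, 139 (57.4%) had exactly 2 DHRS3 UMIs, 44 had 3 and 27 had 4, and the highest had 19, so most members lay at the limit itself. Just outside it, 441 cells within every other limit had 1 DHRS3 UMI, and 2644 had 0. The summed HLA class II and CD74 level had a median of 111 CPM in members, was 0 in 85 of them (35.1%), and reached 1675 CPM in the member just inside the limit. The nearest cell outside that limit, within all others, had 2173 CPM. In all, 664 passing cells (6.66%) had 2 or more DHRS3 UMIs. Of these, 192 were kept out by MKI67 or TOP2A alone, 54 by the HLA sum alone, 43 by CRABP1 alone, 14 by CALB2 and SCGN alone, and 4 by COL1A1 alone. Dividing cells were thus the largest class of DHRS3-positive cells outside the members, and they were compared separately.

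Against the other passing cells, 153 of 8861 genes with 10 CPM or more in either set were at least 1.5-fold higher in members (1.73%) and 607 were at least 1.5-fold lower (6.85%). At 2-fold the counts were 26 higher (0.293%) and 279 lower (3.15%). The median log2 ratio of all counted genes was -0.03. A ratio is log2 of CPM + 1, members over reference, which understates the difference for low genes, and intervals are exact and cover counting error only.

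ACVR2A (chr2:147844517-147930826, plus strand) had 84.8 CPM in members (75.2 to 95.4), against 37.2 CPM in the other cells (36.2 to 38.3), which was 2.28-fold higher (2.01 to 2.57). It had at least 1 UMI in 155 members, with a median of 1 and a highest of 7, so the level did not rest on a few cells. At 5000 UMIs per cell, 34.9% of members had an ACVR2A UMI, against 15.9% of the other cells and 8.53% of the cluster led by CALB2 and SCGN, which also had DCX and GAD2 among its leading genes. Without thinning the shares were 64.0%, 29.1% and 10.6%, with median depths of 11477.5, 10415 and 5904 UMIs. Thinning left out 1 member, 692 of the other cells and 410 cells of that cluster as too shallow. The share in members was thus above that in the CALB2 and SCGN cluster. Free RNA was not measured, and the cells of that cluster may carry ACVR2A themselves, so their share cannot stand for it.

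Among genes with 20 CPM or more in either set, to which every ranking given here is limited, those ranked with ACVR2A at the top were of varied kinds. PRCP, a lysosomal carboxypeptidase, had 255 CPM in members and 118 CPM in the other cells (2.01 to 2.32-fold higher), and 196 members had a UMI of it. It overlaps DDIAS on the opposite strand, which had 3 UMIs in members. FAM181B had 195 CPM in members and 91.6 CPM in the other cells (1.96 to 2.31-fold). SERPINF1, the secreted neurotrophic factor PEDF, had 82.1 CPM in members and 38.3 CPM in the other cells (1.89 to 2.43-fold). MYCN, a transcription factor of growing neural progenitors, had 31.6 CPM in members and 14.6 CPM in the other cells (1.76 to 2.65-fold). FAM13C had 47.1 CPM in members and 20.2 CPM in the other cells, and the pseudokinase gene PRAG1 had 52.9 CPM in members and 24.8 CPM in the other cells. FAM13C was 2.33-fold and PRAG1 2.13-fold higher, with intervals that did not include 1. The antisense transcript JAKMIP2-AS1 (32.8 CPM in members, 13.8 CPM in the other cells) and the unnamed transcript AL353138.1 (24.9 CPM in members, 10.1 CPM in the other cells) completed the group. No source used here says whether the counting kept strand, so antisense values are uncertain.

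Of the 12 highest ratios, 2 rested in part on single cells. PLCG2, a phospholipase C known from blood cells and microglia, had 22.8 CPM in members against 4.47 CPM in the other cells, but 66 of its 75 UMIs lay in 1 member. With the top cell left out of each set its log2 ratio was -0.37, against 2.12 with it. SPARCL1, a matricellular protein secreted by astrocytes, had 152 CPM in members and 72.4 CPM in the other cells. A single member held 106 of its 499 UMIs, and 74 members had any. Among cells with at most 10% mitochondrial UMIs, 51 of them members, its log2 ratio was -0.79, against 1.06 at the 15% limit.

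**Figure D1:**
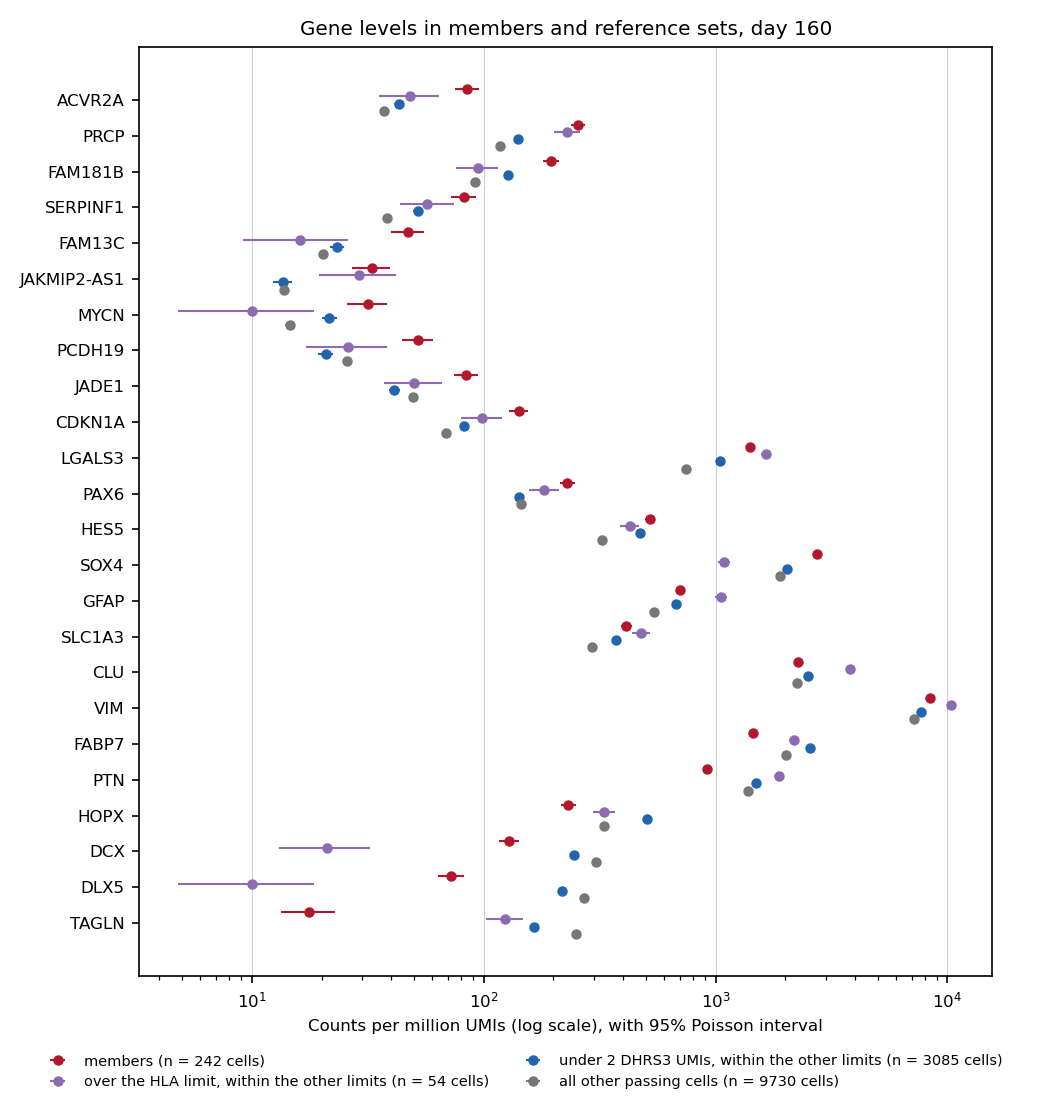
Levels of 24 genes in CPM (log axis, bars are 95% Poisson intervals) in members and in 3 reference sets of day 160 cells. For ACVR2A the members lay at 84.8 CPM, above the 3 reference sets at 48.2, 43.2 and 37.2 CPM, while for HOPX, FABP7 and PTN the members lay lowest.

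The glial part of the label was checked against marker lists. All 18 radial glia genes were counted, and 2 were higher (PAX6 and HES5), 2 lower (TNC and FAM107A) and 14 within 1.5-fold, with a median log2 ratio of -0.08. TNC, an extracellular matrix protein of outer radial glia, had a log2 ratio of -0.61, but with cells weighted equally the ratio was 0.070. Of 19 astrocyte genes 14 were counted, and 1 was higher (SPARCL1), 2 lower (FGFR3 and ID3) and 11 within 1.5-fold, with a median of 0.09. GFAP, the astrocyte intermediate filament, had 703 CPM in members and 543 CPM in the other cells, and SLC1A3, the glial glutamate transporter GLAST, had 412 CPM in members and 294 CPM in the other cells. At 5000 UMIs per cell, 69.7% of members had a GFAP UMI, against 50.01% of the other cells and 17.9% of the CALB2 and SCGN cluster. Unthinned, the shares were 78.1%, 57.5% and 22.1%. Within every other limit, the thinned share was 58.7% in cells with under 2 DHRS3 UMIs. It was 90.7% in the 54 DHRS3-positive cells over the HLA limit, above that of the members. VIM, the intermediate filament of radial glia, had 8389.6 CPM in members and 7179 CPM in the other cells, and had 2 or more UMIs in each member. The members thus carried glial genes, at levels mostly within 1.5-fold of the culture as a whole.

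PAX6, a transcription factor of forebrain radial glia, had 229.6 CPM in members and 145 CPM in the other cells (1.47 to 1.70-fold higher), and HES5, a Notch target that holds cells as progenitors, had 521 CPM in members and 323 CPM in the other cells (1.53 to 1.69-fold). With the other limits held HES5 was not past 1.5-fold, at 472 CPM in cells with under 2 DHRS3 UMIs. FABP7, the brain fatty acid-binding protein of radial glia, had 1452 CPM in members and 2009.9 CPM in the other cells, which was within 1.5-fold. LGALS3, the galectin-3 gene, was the 1 higher gene of 11 counted annexins and galectins, with 1407 CPM in members and 748 CPM in the other cells. With the other limits held, none of the 11, LGALS3 included, was past 1.5-fold against cells with under 2 DHRS3 UMIs. None of 13 counted gliogenic transcription factors and none of 18 cholesterol synthesis genes passed 1.5-fold in either direction, with medians of 0.03 and 0.05.

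Neuronal genes were lower. Of 10 counted neuron genes 8 were lower and none higher, with a median log2 ratio of -1.33. STMN2 and ELAVL3 were counted only through their level in the other cells, so the filter favoured this direction. Summed over all 14 listed neuron genes, counted or not, the level was 1405 CPM in members and 2040 CPM in the other cells. The microtubule protein gene DCX had 129 CPM in members and 305 CPM in the other cells, and GAD2, which makes the transmitter GABA, had 35.6 CPM in members and 112 CPM in the other cells. Of 12 counted neuronal precursor genes 3 were lower, among them DLX5, a homeobox gene of interneuron precursors (72.4 CPM in members, 269.8 CPM in the other cells), and 1 was higher, NEUROG2. NEUROG2, a proneural factor, had 15.5 CPM in members and 1.73 CPM in the other cells, in 20 members, and 22 of its 51 UMIs lay in 1 of them. SOX4, a transcription factor of committed precursors, had 2741 CPM in members and 1889 CPM in the other cells, a ratio just under the 1.5-fold limit. On the list of midbrain, hindbrain and spinal identity 6 of 7 counted genes were lower (HOXB2, HOXB4, HOXB5, HOXB6, HOXB8 and ZIC1) and none higher, with a median of -1.18. HOXB5, a homeobox gene of the posterior neural tube, had 23.7 CPM in members and 66.2 CPM in the other cells. The CALB2 and SCGN cluster had DCX, GAD2 and DLX5 among its 10 leading genes and the cluster led by CRABP1 had HOXB5 and HOXB6. The rule limits those cells in the members alone. Against cells with under 2 DHRS3 UMIs within every other limit, 5 of 8 counted neuron genes were lower, with a median of -0.94. STMN2 and ELAVL3 were not counted there, so the 2 neuron medians cover different genes. On the identity list 5 of 7 were lower, with a median of -0.61. That reference still held 600 cells of the CALB2 and SCGN cluster and 151 of the CRABP1 cluster. The cause of the remaining difference was not tested.

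Lists that hold genes of the rule were lower as well. Outside the rule genes, 4 of the 6 lowest ratios at 20 CPM or more were those of the mitotic genes DLGAP5, CKAP2L, UBE2C and CENPA. Without MKI67 and TOP2A the median of the cycling list was -2.71, and UBE2C, which marks mitotic cyclins for destruction, had 8.21 CPM in members and 198 CPM in the other cells. All 11 counted HLA class II genes were lower, 4 of them genes of the rule. A gene low in members was counted if it was high in the other cells, so the filter favoured lower genes in these lists. Summed over all 12 listed class II genes, rule genes included, the level was 383 CPM in members and 1799 CPM in the other cells. Of 9 counted HLA class I and peptide-loading genes 1 was lower. B2M had 3228 CPM in members and 3419 CPM in the other cells. HLA-DRB genes are near-identical copies, so their counts may be split between them. All 5 counted mesenchymal and contractile genes, COL1A1 of the rule among them, were lower, with TAGLN at 17.6 CPM in members and 251 CPM in the other cells. Markers of microglia and blood, endothelium, and neural crest had no gene at 10 CPM in either set; in members 6 of 8, 5 of 6 and 7 of 10 of these markers had no UMI, and each list summed to under 5 CPM.

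Around DHRS3 itself the retinoid genes were mostly low or without a UMI. Of 26 listed genes 10 were counted, and 9 had no UMI in members, among them the retinoic acid-making enzymes ALDH1A1, ALDH1A2 and ALDH1A3 and the retinoic acid-degrading enzymes CYP26A1, CYP26B1 and CYP26C1. Of 8 counted activin, BMP and TGF-beta receptors the 1 higher gene was ACVR2A, already named as a marker, and none was lower. The list median was -0.03. Of 6 counted ligands and inhibitors of that family, BMP7 was higher and TGFB1 lower. BMP7, a bone morphogenetic protein, had 61.1 CPM in members and 33.4 CPM in the other cells. Against cells with under 2 DHRS3 UMIs within every other limit its log2 ratio was 0.535, within 1.5-fold.

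Among the lists with 5 or more counted genes, that of p53 targets and CDK inhibitors had the highest median. Of its 10 counted genes 4 were higher and 1 was lower, with a median log2 ratio of 0.54 beside -0.03 over all genes. CDKN1A, the cell cycle inhibitor p21, had 141 CPM in members and 69.0 CPM in the other cells (1.86 to 2.25-fold higher). MDM2, the ligase that degrades p53, had 62.0 CPM in members and 37.7 CPM in the other cells. The death receptor gene TNFRSF10B had 34.1 CPM in members and 19.4 CPM in the other cells, and the pro-apoptotic gene BBC3 had 39.2 CPM in members and 24.9 CPM in the other cells. The lower gene was CDKN2C, at 40.1 CPM in members and 61.3 CPM in the other cells. The rule kept dividing cells out of the members but not out of the other cells. Against cells with under 2 DHRS3 UMIs within every other limit, which held no MKI67 or TOP2A UMI either, 2 of 10 (CDKN1A and TNFRSF10B) were higher and none lower, with a median of 0.42.

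**Figure D2:**
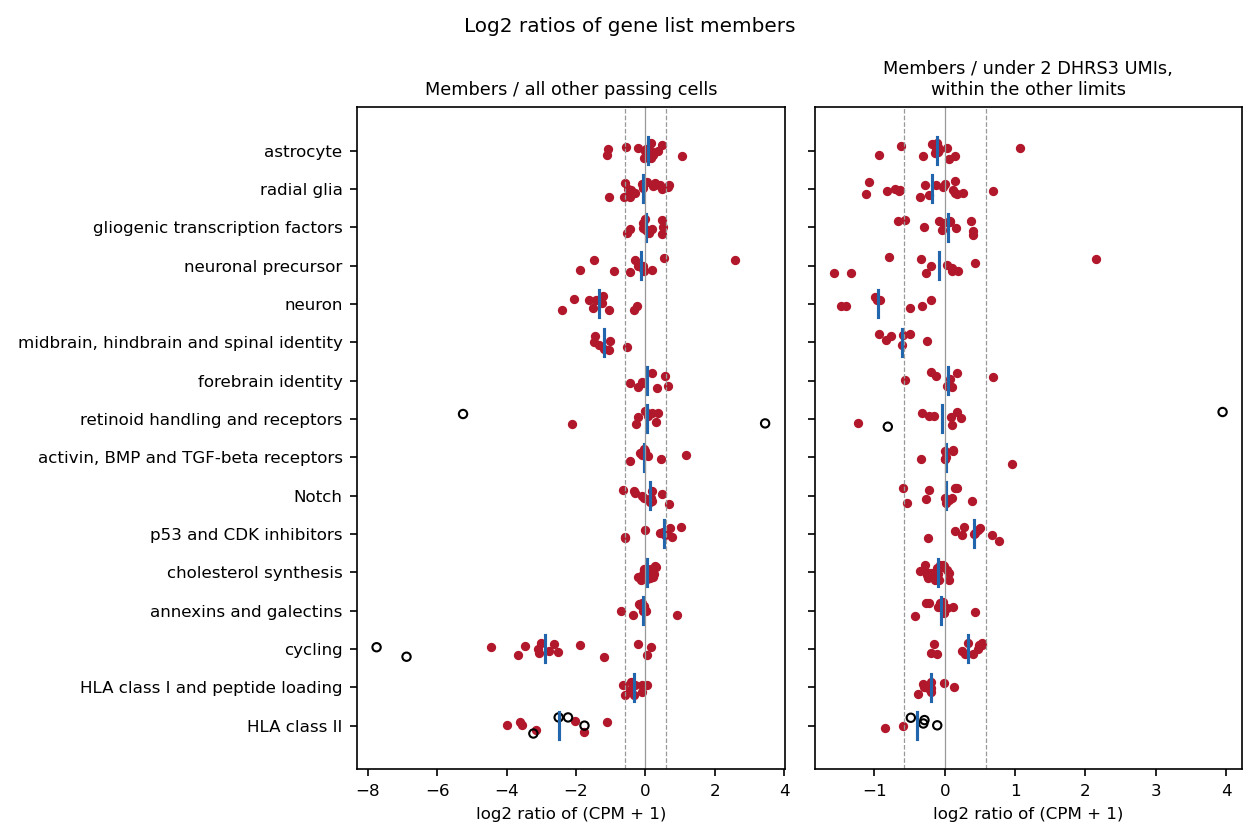
Each point is 1 counted gene of a list, placed by its log2 ratio of CPM + 1 in members over all other passing cells (left) and over cells with under 2 DHRS3 UMIs within every other limit (right); open points are genes of the rule, blue bars are list medians and dashed lines mark 1.5-fold. The neuron list had a median of -1.33 on the left (10 counted genes) and -0.94 on the right (8 counted genes). The p53 list had 0.54 and 0.42.

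To see what went with DHRS3 when the other limits were held, the members were compared with the 3085 cells that met all other limits but had under 2 DHRS3 UMIs. Of 8639 counted genes 98 were at least 1.5-fold higher in members (1.13%) and 230 were lower (2.66%). At 2-fold these counts were 14 (0.162%) and 52 (0.602%). The reference cells were shallower, with a median of 9310 UMIs, and 1.59% of them were marked as doublets, against 5.37% of members; with each cell thinned to 5000 UMIs the counts were 280 higher and 511 lower, and without marked doublets 109 and 256.

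ACVR2A had 84.8 CPM in members and 43.2 CPM in these cells (1.72 to 2.24-fold higher). PCDH19, a protocadherin that joins neural progenitors, led the genes with 20 CPM or more after DHRS3, with 52.0 CPM in members and 20.8 CPM in the reference cells (2.10 to 2.96-fold). JADE1, a subunit of a histone acetyltransferase complex, had 83.9 CPM in members and 41.1 CPM in the reference cells (1.79 to 2.32-fold), and PCSK5, a protease that activates prohormones, had 20.7 CPM in members and 9.64 CPM in the reference cells (1.63 to 2.80-fold). PAX6 had 229.6 CPM in members and 142 CPM in the reference cells, and it was the 1 higher gene of the radial glia list. The 6 lower genes of that list were FABP7, HOPX, FAM107A, MOXD1, PTN and TTYH1. HOPX, a marker of outer radial glia, had 232 CPM in members and 504 CPM in the reference cells (2.17-fold lower, 2.02 to 2.34). PTN, a secreted growth factor of glia, had 922 CPM in members and 1498 CPM in the reference cells, and FABP7 had 1452 CPM in members and 2566 CPM in the reference cells. GFAP was close, at 703 CPM in members and 676 CPM in the reference cells. TNC was within 1.5-fold here, with a log2 ratio of -0.28.

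The lowest ratio among genes with 20 CPM or more was that of TAGLN, the actin-binding protein transgelin, at 17.6 CPM in members and 166 CPM in the reference cells. The cluster led by TAGLN held 74 of the reference cells and 1 member. Inside the 2 clusters that held most members, described further on, TAGLN had 24.5 CPM in members and 45.7 CPM in the reference cells (0.358 to 0.772-fold), and 8.69 CPM in members and 15.4 CPM in the reference cells (0.262 to 1.09-fold), with the first values from cluster 1 and the second, not different beyond counting error, from cluster 6. TNFRSF12A, the receptor for the cytokine TWEAK, had 14.3 CPM in members and 67.0 CPM in the reference cells (3.51 to 6.40-fold lower), and SERPINA3, an acute-phase protease inhibitor, had 15.8 CPM in members and 51.1 CPM in the reference cells. The interneuron genes DLX5 (72.4 CPM in members, 217 CPM in the reference cells), SP9 (34.1 CPM in members, 94.3 CPM in the reference cells) and TAC3, which encodes neurokinin B (27.7 CPM in members, 80.1 CPM in the reference cells), were lower as well. Of 8 counted neuron genes 5 were lower and none higher, with a median of -0.94 (values inside clusters, given further on, differ), and on the hindbrain and spinal identity list 5 of 7 were lower, with a median of -0.61. None of 11 counted cycling genes and none of 18 cholesterol synthesis genes passed 1.5-fold.

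The levels were then followed along the number of DHRS3 UMIs per cell among the 3327 cells within every other limit. Cells with 0, 1, 2, 3 to 4 and 5 or more DHRS3 UMIs numbered 2644, 441, 139, 71 and 32, with median depths of 9077.5, 10367, 10897, 12266 and 13886 UMIs, so depth moved with the step. ACVR2A had 39.7, 61.2, 83.9, 84.4 and 89.3 CPM in these 5 steps, and its level at 2 or more UMIs stayed within counting error. PCDH19 had 19.0, 30.1, 38.9, 53.5 and 97.4 CPM, and PRCP had 133, 181, 223, 239.8 and 404 CPM. PAX6 had 138, 168, 209, 243 and 278 CPM, and SOX4 had 2041, 2022, 2425, 3080.4 and 3242 CPM. In PCDH19, PRCP, PAX6 and SOX4 the highest level was in the cells with the most DHRS3 UMIs, although for PAX6 and SOX4 it overlapped the step below within counting error. FABP7 had 2657, 2093, 1491, 1375 and 1462 CPM and PTN had 1539, 1287, 1014, 818 and 784 CPM, so both were lower in each of the 3 member steps than in cells with 0 or 1 UMI. GFAP followed no single direction, with 677, 669, 882, 552 and 341 CPM. Nor did MYCN, with 20.2, 28.8, 36.7, 34.0 and 8.12 CPM, where the last value rested on 4 UMIs (2.21 to 20.8 CPM). DLX5 had 240.0, 99.1, 52.1, 116 and 60.9 CPM, with the highest level in cells without a DHRS3 UMI.

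**Figure D3:**
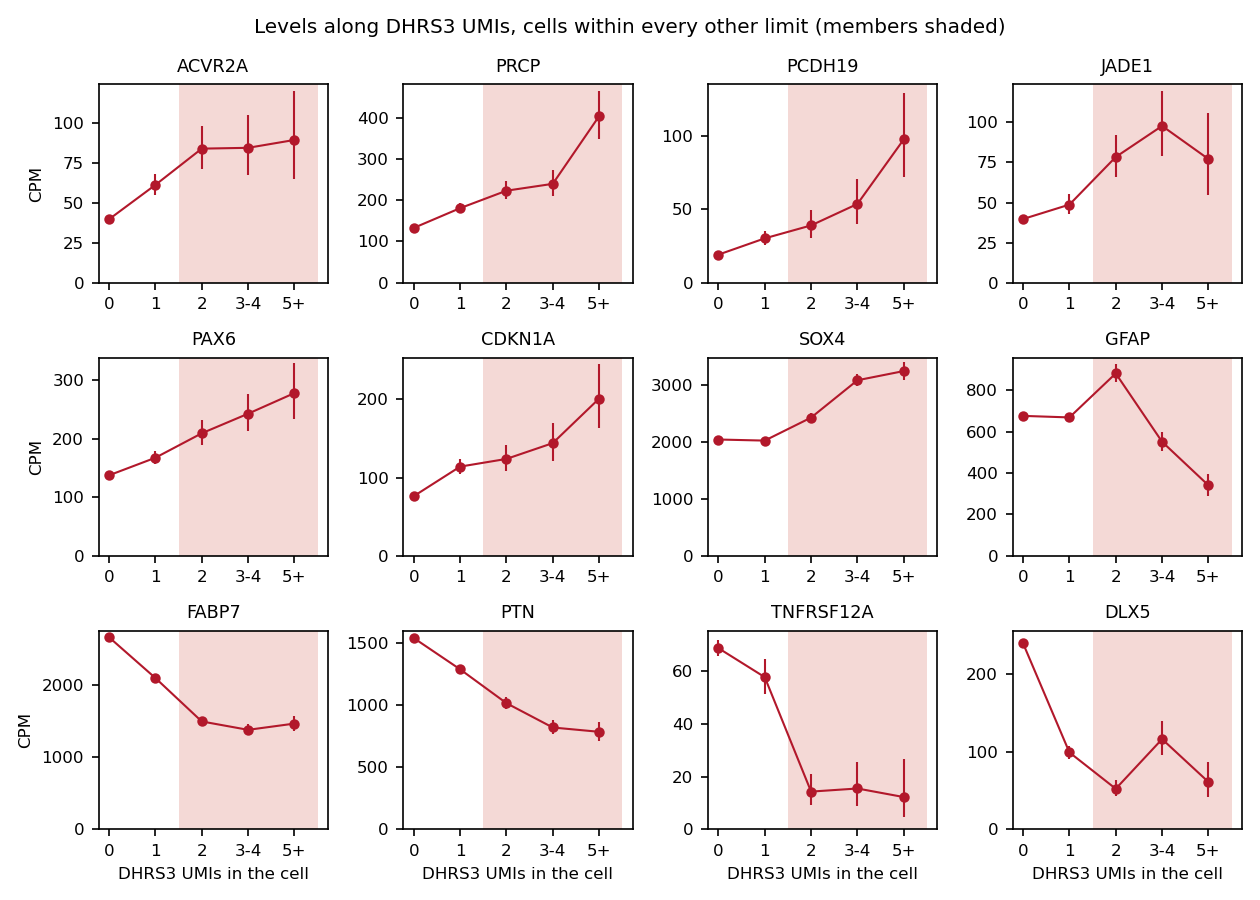
Levels of 12 genes in CPM (bars are 95% Poisson intervals) in day 160 cells within every other limit, split by the DHRS3 UMIs of the cell; the shaded steps are the members. PCDH19 lay between 19.0 CPM without a DHRS3 UMI and 97.4 CPM at 5 or more, while FABP7 was lower in all 3 member steps.

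Unsupervised clustering put the members mostly in 2 places. Of 11 Leiden clusters of the day 160 library, cluster 6 held 99 members (40.9%) and cluster 1 held 84 (34.7%), and the other 59 members were spread over 7 more clusters. Cluster 6 held 816 cells and was led by GADD45G, OLIG1, LMO1, MYCN, SCG2 and SERPINF1, with DHRS3 and ACVR2A also among its 10 leading genes, and it was left without a cell type name because only OLIG1 among its leading genes was a listed marker. DHRS3 had 63.2 CPM in this cluster and ACVR2A 90.8 CPM, the highest of the 11 clusters. Cluster 1 held 2511 cells and was led by HLA class II genes. Members were still a minority in both, at 12.1% of cluster 6 and 3.35% of cluster 1. The members were thus no cluster of their own.

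The members of the 2 clusters differed in their genes, which is a description because the clustering used them. Members in cluster 1 had 915 CPM of GFAP, 10363 CPM of VIM and 3223 CPM of CLU, a chaperone secreted by astrocytes, against 399.8, 6828 and 1347 CPM in the members of cluster 6. Members in cluster 6 had 3782 CPM of SOX4 and 781 CPM of the interneuron precursor gene DLX2, against 2005 and 305 CPM in the members of cluster 1. SOX2, PAX6 and DHRS3 were similar, with DHRS3 at 249 CPM in cluster 6 (221 to 280.1) and 243 CPM in cluster 1 (216 to 272). By these markers the members of cluster 1 were the more glial, and those of cluster 6 carried precursor genes beside GFAP, so the name glia held for them only in part.

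**Figure D4:**
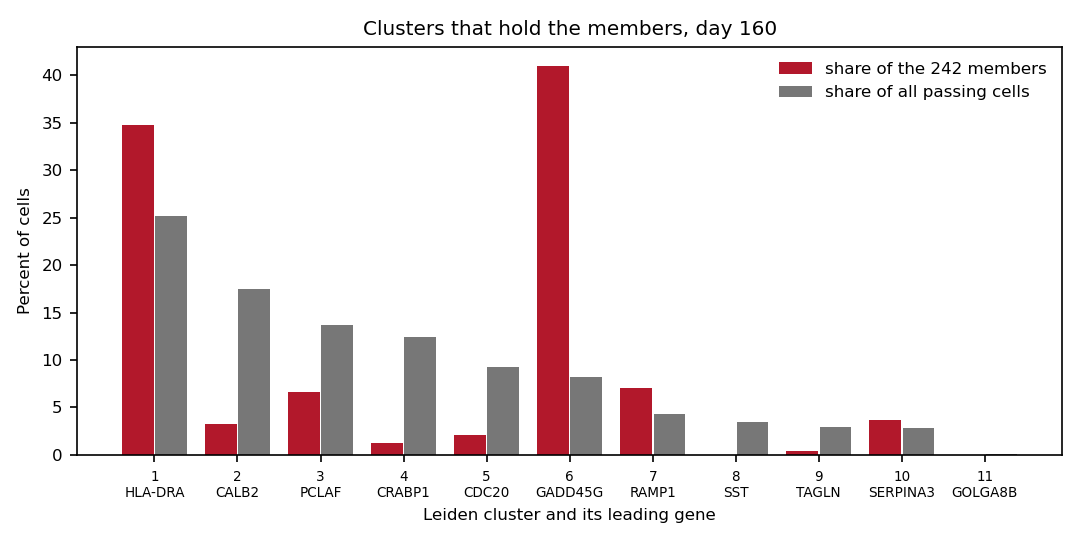
Share of the 242 members and of all 9972 passing day 160 cells in each of the 11 Leiden clusters, in percent, with the leading gene of each cluster. Clusters 6 and 1 held 40.9% and 34.7% of the members, against 8.18% and 25.2% of all passing cells.

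The reference cells were distributed differently, with 18.6% in cluster 6 and 33.6% in cluster 1, and 19.4% in the CALB2 and SCGN cluster, which held 3.31% of members. The DHRS3 comparison was therefore repeated inside each of the 2 clusters, a step added after these shares were seen. In cluster 1, with 84 members and 1036 reference cells, ACVR2A had 76.6 CPM in members and 37.6 CPM in the reference cells (1.62 to 2.55-fold). In cluster 6, with 99 members and 575 reference cells, it had 114 CPM in members and 75.3 CPM in the reference cells (1.23 to 1.84-fold). PCDH19, JADE1, PCSK5, JAKMIP2-AS1, FAM13C, PRCP, PAX6 and SOX4 were also higher in members in both clusters, with intervals that did not include 1. FAM181B, SPARCL1 and LGALS3 were higher in members of cluster 1 but not beyond counting error in cluster 6 (0.997 to 1.35, 0.853 to 1.80 and 0.984 to 1.11-fold). Of 97 genes past 1.5-fold higher outside DHRS3, 25 were past it in both clusters, beside 0.510% of all 8633 genes, and of 229 lower genes 67 were, beside 1.37%; these comparisons share cells with the pooled one. PCDH19 had 64.4 CPM in members and 19.1 CPM in the reference cells of cluster 1, and 52.2 CPM in members and 31.8 CPM in the reference cells of cluster 6. JADE1 had 81.5 CPM in members and 37.4 CPM in the reference cells of cluster 1, and 94.7 CPM in members and 57.8 CPM in the reference cells of cluster 6.

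HOPX, FABP7, PTN and TNFRSF12A were lower in members inside both clusters. HOPX had 229.9 CPM in members and 775 CPM in the reference cells of cluster 1, and 150.4 CPM in members and 349 CPM in the reference cells of cluster 6. GFAP, close between the pooled sets, was lower in members inside both clusters, with 915 CPM in members and 1019 CPM in the reference cells of cluster 1 (0.844 to 0.954-fold), and 399.8 CPM in members and 505 CPM in the reference cells of cluster 6 (0.716 to 0.875-fold). HES5 was lower as well (0.816 to 0.964-fold in cluster 1, 0.792 to 0.941-fold in cluster 6). CDKN1A was higher in members of cluster 1, at 191 CPM in members and 72.4 CPM in the reference cells. It was close in cluster 6, at 125 CPM in members and 121 CPM in the reference cells (0.858 to 1.24-fold). DLX5 was higher in members of cluster 6, at 81.7 CPM in members and 53.6 CPM in the reference cells (1.19 to 1.93-fold), and its difference in cluster 1 was not detectable at this depth (0.756 to 2.97-fold). TAC3 was higher in members of cluster 6 (22.6 CPM in members, 7.58 CPM in the reference cells), and SP9 showed no difference beyond counting error in either cluster (0.922 to 2.01-fold in cluster 6, 0.878 to 6.48-fold in cluster 1). The lower level of these 3 genes in members as a whole was therefore not seen inside these clusters. Of the neuron genes, DCX was higher in members of cluster 1, at 54.6 CPM in members (2.06 to 3.57-fold of the reference cells), and in cluster 6 its interval included 1 (0.747 to 1.04-fold). GAD2 was higher in members of cluster 6, at 20.9 CPM in members and 10.8 CPM in the reference cells (1.15 to 3.14-fold), and in cluster 1 its interval included 1 (0.247 to 2.57-fold).

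Dividing cells gave the DHRS3 comparison in other cells of the same library. The 192 cells with 2 or more DHRS3 UMIs kept out by MKI67 or TOP2A alone were set against the 1397 dividing cells with under 2 DHRS3 UMIs within the other limits, a comparison chosen after the data were seen. Of 8840 counted genes 73 were at least 1.5-fold higher in the DHRS3-positive cells (0.826%) and 103 were lower (1.17%). Median depth was 16329.5 UMIs in the DHRS3-positive dividing cells and 11836 UMIs in the reference cells, and 10.9% and 6.66% of these sets were marked as doublets. ACVR2A had 76.6 CPM in the DHRS3-positive dividing cells and 51.1 CPM in the other dividing cells (1.31 to 1.71-fold), a log2 ratio of 0.58 and just under the 1.5-fold limit. PCDH19 had 58.8 CPM in the DHRS3-positive dividing cells and 32.1 CPM in the other dividing cells (1.56 to 2.14-fold), and PRCP had 183 CPM in the DHRS3-positive dividing cells and 115 CPM in the other dividing cells (1.47 to 1.74-fold). NPTX2, a secreted neuronal pentraxin, led the genes with 20 CPM or more after DHRS3, with 65.8 CPM in the DHRS3-positive dividing cells and 28.4 CPM in the other dividing cells.

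Leaving out the genes of the rule, 72 genes higher in members than in their matched reference were counted in both comparisons, and 21 of them (29.2%) were also at least 1.5-fold higher in the DHRS3-positive dividing cells. These were 33.9% of the 62 genes higher there, beside a background of 0.749% of 8277 genes. Of 187 lower genes 46 (24.6%) were lower in both, which was 52.3% of the 88 genes lower in dividing cells, beside a background of 1.06%. The 4 sets shared no cell, but all came from 1 library and in both comparisons the DHRS3-positive cells were the deeper ones. GAD2 (27.7 CPM in DHRS3-positive and 109 CPM in other dividing cells) and DLX5 (52.7 CPM in DHRS3-positive and 169 CPM in other dividing cells) were among the lowest. None of 18 radial glia genes and none of 10 p53 targets and CDK inhibitors passed 1.5-fold between the dividing sets. The distribution of the dividing sets over clusters was not examined.

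**Figure D5:**
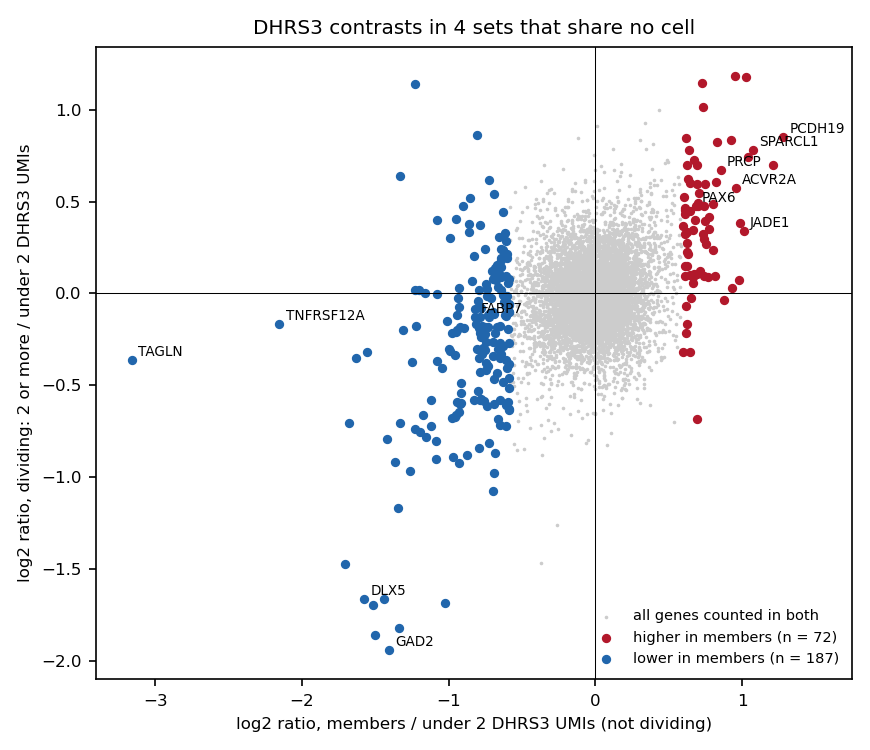
Log2 ratios of 8277 genes in members over cells with under 2 DHRS3 UMIs within every other limit (x axis) and in dividing cells with 2 or more over those with under 2 DHRS3 UMIs (y axis), without the genes of the rule. Of the 72 genes higher in members 21 were also at least 1.5-fold higher in DHRS3-positive dividing cells, PCDH19 and PRCP among them, and of the 187 lower genes 46 were also lower.

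The members were last set against the 54 cells that differed in the rule by the HLA sum alone, of which 50 were in cluster 1. Of 8846 counted genes 973 were higher in members (11%) and 781 were lower (8.83%). With 995404 UMIs in the 54 cells, 10 CPM there was about 10 UMIs, so these shares hold much counting error. HLA class II genes outside the sum were lower in members with those in it: HLA-DPB1 had 6.99 CPM in members and 259 CPM in the 54 cells, and HLA-DQB1 had 1.82 CPM in members and 79.4 CPM in the 54 cells. Of 9 counted HLA class I and peptide-loading genes 5 were lower and none higher, with B2M at 3228 CPM in members and 4587 CPM in the 54 cells. Of 11 counted interferon response genes 6 were lower and none higher. A gene low in members was counted if it was high in the 54 cells, so the filter favoured lower genes here. Over all 16 listed interferon response genes the sum was 224 CPM in members and 340 CPM in the 54 cells. Astrocyte genes lay on both sides, with 4 of 13 lower (GFAP, CLU, FGFR3 and CD44) and 2 higher (SLC1A2 and GLUL). CD44, the hyaluronan receptor of astrocyte precursors, had 198 CPM in members and 392 CPM in the 54 cells, and GFAP had 703 CPM in members and 1058 CPM in the 54 cells. With at most 10% mitochondrial UMIs, which left 51 members and 7 of the 54 cells, the log2 ratio of GFAP was 1.10, the opposite direction.

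All 12 counted neuronal precursor genes were higher in members than in these HLA-rich cells, with a median log2 ratio of 1.89 beside 0.02 over all genes. A gene low in the 54 cells was counted only if it was high in members, so the filter favoured this direction. Summed over all 14 listed genes, counted or not, the level was 4132 CPM in members and 1538 CPM in the 54 cells. SOX4 had 2741 CPM in members and 1089 CPM in the 54 cells, and DLX2 had 531 CPM in members and 183 CPM in the 54 cells. BCL11A, a neuronal transcription factor, had no UMI in the 54 cells, which allows 3.01 CPM, and 22.8 CPM in members, at least 7.57-fold higher. ACVR2A had 84.8 CPM in members and 48.2 CPM in the 54 cells (1.29 to 2.44-fold higher), but with at most 10% mitochondrial UMIs, which left 51 members and 7 of these cells, its log2 ratio was -0.077. Only 1 of the 54 cells was in cluster 6, and 50 were in cluster 1. The members of cluster 1 alone had 2005 CPM of SOX4, also above the 1089 CPM of the 54 cells. Their DLX2 level, given above, was above 183 CPM as well. The whole list was not compared inside cluster 1, and the part of cluster 6 in its difference was not tested.

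At day 220 few such cells were found. Of 524 passing day 220 cells, 10 had 2 or more DHRS3 UMIs (1.91%, 0.919 to 3.48%), against 664 of 9972 at day 160 (6.66%, 6.18 to 7.17%), although the day 220 cells were deeper, with a median of 46438 UMIs against 10457.5. DHRS3 had 2.08 CPM at day 220 and 24.5 CPM at day 160. The 4 day 220 cells that met the whole rule held 224173 UMIs. PRCP had 589 CPM in these 4 cells (493 to 698) and 305 CPM in the other 520. FAM13C had 125 CPM in the 4 cells (83.0 to 181) and 48.2 CPM in the other 520, and ACVR2A had 107 CPM in the 4 cells (68.6 to 159) and 60.2 CPM in the other 520. PCDH19 (71.4 CPM in the 4 cells, 65.4 CPM in the other 520) and SPARCL1 (178 CPM in the 4 cells, 178 CPM in the other 520) were close. PRAG1 was lower in the 4 cells, at 40.1 CPM (18.4 to 76.2) and 83.5 CPM in the other 520. JADE1 had 8.92 CPM in the 4 cells (1.08 to 32.2) and 21.3 CPM in the other 520, and MYCN had no UMI in the 4 cells, which allows 13.4 CPM, and 3.61 CPM in the other 520. With 4 cells no count of genes was made. The day 220 library is so named by its title and time label, although its protocol text repeats day 160.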

How the data were processed

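The authors deposited unnormalised UMI counts, a whole number for each gene in each barcode. Per the file headers, they come from Cell Ranger 7.0.1. The submitters' processing notes name Cell Ranger 7, Seurat 4 and hg38. Settings for introns, strand and cell calling were not given in the sources. Of 13018 day 160 barcodes, 9972 had 1000 or more genes and at most 15% mitochondrial UMIs. The members and gene lists were chosen with earlier results of these data known.

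Counts were summed over the cells of a set and scaled to CPM. Genes with 10 CPM in either set were counted, and 1.5-fold was the limit on log2 of CPM + 1. Intervals are exact at 95% (Poisson, conditional binomial, Clopper-Pearson), and cover counting error only; the floor for a gene with no UMI is 3 UMIs of the set. With 1 library per time point no p-value was computed. Shares were taken after thinning cells to 5000 UMIs. Scrublet (expected rate 0.06) and Leiden clustering (2000 variable genes, 30 components, 15 neighbours, resolution 0.5) were run in scanpy 1.11.5. The text names, at 20 CPM or more, the 12 highest and lowest ratios of the comparison with all other cells and the 8 of the others, the genes of highest level or largest ratio in each list, and a few list genes and repeats picked after their values were seen. Gene positions are from GENCODE on GRCh38. The code was tested on simulated counts. A few genes are not reported here.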

Additional observations from a re-analysis of the deposited data

How the results depend on the processing

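No paired analysis was possible because each time point had 1 library and no replicate number; leaving out replicates was not possible either, and day 220 gene counts were not run on 4 cells. In the members 10 CPM was 32.9 UMIs, and in the HLA-rich cells 9.95 UMIs, which limits the ratios of low genes. Leaving out doublets, an HLA limit of 1000 CPM, median-of-ratios scaling and CPM without mitochondrially encoded and ribosomal protein genes kept all 8 counts within 1.5 times. Counts are given below as higher and lower.

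Against the other passing cells (153 and 607), no filter on level gave 579 and 1639, a filter of 50 CPM 47 and 139, a 10% mitochondrial limit 560 and 1357, and a pseudocount of 10 gave 71 and 330. The higher count was 353 with cells thinned to 5000 UMIs, 246 with the mean of per-cell CPM and 278 for 3 or more DHRS3 UMIs. That last setting moved cells with 2 DHRS3 UMIs into the reference, here and in the matched and dividing comparisons. It left 103 members against 9869 other cells or 3224 matched cells with under 3 DHRS3 UMIs. Among dividing cells it left 86 against 1503. Against cells with under 2 DHRS3 UMIs (98 and 230), the same settings gave 535 and 1060 without a filter, 30 and 44 at 50 CPM, 280 and 511 thinned, 507 and 991 at the 10% mitochondrial limit, 233 and 531 for 3 or more DHRS3 UMIs, and 41 and 84 with the pseudocount of 10. Against the HLA-rich cells (973 and 781) they gave 3391 and 2512, 188 and 188, 1819 and 1695, and 2512 and 2954 (7 reference cells); 3 or more DHRS3 UMIs gave 1450 lower, and the pseudocount of 10 gave 461 and 349. In dividing cells (73 and 103) they gave 458 and 731, 14 and 19, 359 and 527, 542 and 513, 208 and 237, and 17 and 26; the mean of per-cell CPM gave 169 lower. Leaving out each gene's top cell in each set, added after seeing the data, gave 63 higher against cells with under 2 DHRS3 UMIs, 478 lower against the HLA-rich cells and 35 higher in dividing cells. At Leiden resolution 1.0 the 2 main clusters held 63.6% of members, against 75.6%. The cause was not tested, except that thinning and the mitochondrial limit leave fewer UMIs.

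Log2 ratios of named genes past 1.5-fold that changed sign were as follows; ratios within 1.5-fold, such as those of GFAP and HES5 against cells with under 2 DHRS3 UMIs, could change sign too. Against the other cells, TNC was 0.070 by mean of per-cell CPM, SPARCL1 was -0.79 at the 10% mitochondrial limit, and PLCG2 was -1.34 for 3 or more DHRS3 UMIs and -0.37 without top cells. Against cells with under 2 DHRS3 UMIs, SPARCL1 was -0.78 at that limit. PLCG2 was -0.72, -2.33 and -1.06 by mean of per-cell CPM, for 3 or more DHRS3 UMIs and without top cells. For 3 or more DHRS3 UMIs the members with 2 moved into both references, and they held 73 of the members' 75 PLCG2 UMIs. Against the HLA-rich cells at the 10% limit, ACVR2A was -0.077, CALB1 2.03, GFAP 1.10 and SERPINA3 3.36. NEAT1 in dividing cells was -0.19 without doublets. Within cluster 1, DCX was 1.40, DLX5 0.57, SP9 1.04 and TAC3 0.39; within cluster 6, DLX5 was 0.60, GAD2 0.89, SP9 0.44, TAC3 1.46 and SERPINA3 0.070.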

Other observations

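PRCP and FAM181B, both among the 12 highest ratios, are neighbours on chromosome 11 (GRCh38, GENCODE). FAM181B lies at chr11:82729941-82733864 and PRCP at chr11:82823502-82970584, both on the minus strand. RAB30, the next protein-coding gene beyond PRCP, had 11.9 CPM in members and 10.4 CPM in the other passing cells (0.811 to 1.57-fold). PCF11, farther on, had 39.8 CPM in members and 35.2 CPM in the other cells (0.944 to 1.35-fold). CCDC90B had 109 CPM in members and 99.3 CPM in the other cells (0.981 to 1.21-fold), so these 3 neighbours did not share the difference beyond counting error. DDIAS, which overlaps PRCP on the plus strand, had 0.912 CPM in members and 4.48 CPM in the other cells. At 5000 UMIs per cell, 140 of 241 members had a PRCP UMI, 117 had a FAM181B UMI, 73 had both and 57 had neither.

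Several genes had their UMIs in few members. SST, the somatostatin gene of interneurons, had 84 UMIs in 3 members, and 73 of these lay in 1 cell. DLX6-AS1, an interneuron transcript, had 197 of its 442 UMIs in 1 member, with the rest over other members. EOMES, a gene of excitatory intermediate progenitors, had 27 UMIs in 10 members. OLIG1, a transcription factor of oligodendrocyte precursors, had 55 UMIs in 24 members and a highest count of 11. Over the whole set, BTG2, an antiproliferative immediate early gene, had 219.6 CPM in members and 136 CPM in the other passing cells, and VCAM1, an adhesion molecule of reactive astrocytes, had 131 CPM in members and 81.1 CPM in the other cells. Neither was at least 1.5-fold higher than in cells with under 2 DHRS3 UMIs within every other limit.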
